A study of Mus musculus with 6 samples.

Results

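The 10 genes described here are members of the Notch pathway, a signalling route between neighbouring cells. They were chosen by name: the ligand genes Dll1, Dll4 and Jag1, the receptor genes Notch1 and Notch2, the DNA-binding gene Rbpj, and the target genes Hes1, Hes5, Hey1 and Hey2. They are 10 of the 21899 genes listed, of which 18782 had at least 1 count and 14956 passed a filter on low counts and were tested. All 10 passed that filter. The thalamus of 6 wild-type male C57BL/6J mice, 8 to 10 weeks old at purchase, was sequenced in bulk, with 3 mice in each of 2 groups. Both groups had received 50 Gy to the thalamus and, 2 weeks later, 2 µL of virus at the same site, and their tissue was taken 6 weeks after irradiation. RC mice received AAV9 GFAP104::tdTomato, which carries a red fluorescent protein, and RN mice received AAV9 GFAP104::mND1-tdTomato, which adds mouse NeuroD1, a transcription factor that drives neuronal differentiation. The GFAP104 promoter joins an enhancer to the astrocyte promoter of Gfap, so the transgene was directed to astrocytes and not to every cell of the tissue. Normal control mice were not analysed here, so the comparison is between the 2 viruses in irradiated thalamus. Each library mixes the RNA of all cell types in the removed tissue, and for every value below, fewer cells of a type and less RNA per cell cannot be told apart.

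In Notch signalling a ligand on one cell, of the Delta (Dll) or Jagged (Jag) family, binds a Notch receptor on its neighbour, and cleavage of the receptor by γ-secretase releases an intracellular part that enters the nucleus. There it joins RBPJ and Mastermind proteins to switch on repressors of the HES and HEY families, which in turn hold back proneural genes. In neural tissue the route keeps progenitors and astrocytes from becoming neurons, and in blood vessels DLL4, NOTCH1, HEY1 and HEY2 act in endothelial sprouting and in arterial identity. Several of these genes are therefore used by more than one cell type of the thalamus.

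Levels are given as CPM, read counts scaled to library size. None of the 10 genes passed the test between RN and RC, which was edgeR's quasi-likelihood test with p-values adjusted by Benjamini and Hochberg's method over all tested genes. Passing it took both a fold change of 2 or more and an adjusted p under 0.05. Among all 14956 tested genes 11 passed, or 0.0735%, of which 9 were higher and 2 lower in RN, or 17 and 5 with the replicate number as a block. By DESeq2's Wald test with the same thresholds 0 of the 10 passed, beside 1.14% of the 16250 genes to which it gave an adjusted p. At an unadjusted p under 0.05 stood 4 of the 10, where 11.8% of all tested genes did. Of these, Dll1 and Hes5 were higher in RN, where 5.44% of tested genes were, and Dll4 and Hey1 were lower, where 6.33% were. The 3 mice of each group did not overlap for 3 of the 10 genes, beside 16.3% of all tested genes. Those 3 were Dll1, which was higher in every RN mouse than in any RC mouse as were 8.18% of tested genes, and Dll4 and Hey1, which were lower as were 8.12%. Leaving out RC replicate 3 brought that count to 5, with Notch2 and Hey2 added below RC, and with those 5 mice 25.9% of all tested genes did not overlap. The median log2 fold change (RN over RC) of the 10 genes was -0.07, and that of all tested genes was 0.0037. Fitted log2 fold changes were positive for 4 members and negative for 6.

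**Figure D1:**
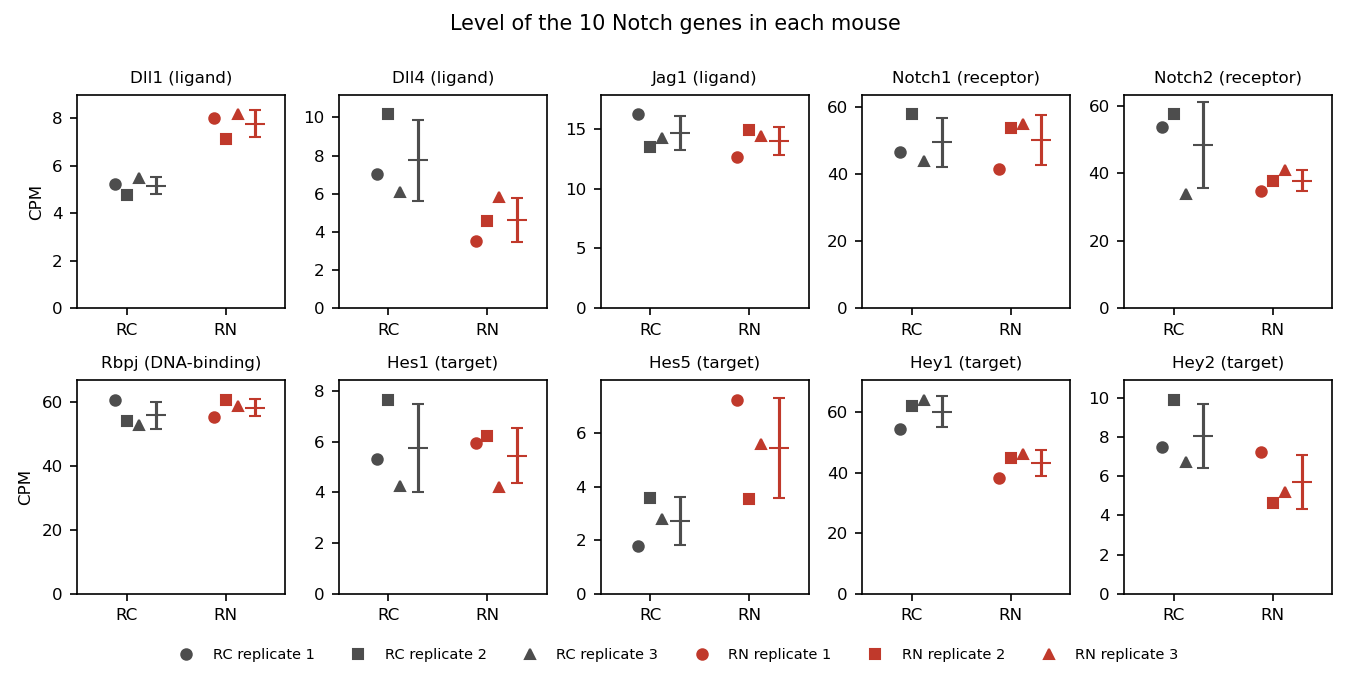
Levels of the 10 genes in CPM (vertical axes, linear from 0), 1 panel per gene, with a symbol per mouse in RC (grey) and RN (red) and, to the right of the symbols, the mean ± SD of 3 mice. Dll1 lies higher in all 3 RN mice, Dll4 and Hey1 lie lower in all 3, and the points of the other genes overlap between the groups.

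The letters upstream of the start sites are shown for 3 members, since RBPJ, the DNA-binding partner of the cleaved receptor, reads a short DNA word. The word searched was TGGGAA, the core of the RBPJ site, together with its reverse complement TTCCCA on the same window. RefSeq sequences of the 250 bases before a gene's start, on the build GRCm38.p6, covered 8 of the 10 genes. No sequence was found for Hes1 and Hey1. Of the 32851 windows of this length over all genes, 21.6% held the word on either strand. Below, the words are in capitals and all other bases in lower case, 5′ to 3′ on the strand of the gene. Hes5 (chr4:154960673-154960922, plus strand) and Hey2 (chr10:30842784-30843033, minus strand) are shown because they are target genes with the word, and Dll4 (chr2:119325534-119325783, plus strand) because it is a ligand gene without it in this window.
Hes5: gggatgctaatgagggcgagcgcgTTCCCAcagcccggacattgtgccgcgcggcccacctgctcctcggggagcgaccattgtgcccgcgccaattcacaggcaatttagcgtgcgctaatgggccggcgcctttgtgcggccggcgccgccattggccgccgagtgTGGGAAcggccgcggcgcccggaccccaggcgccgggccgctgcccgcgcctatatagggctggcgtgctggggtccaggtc
Hey2: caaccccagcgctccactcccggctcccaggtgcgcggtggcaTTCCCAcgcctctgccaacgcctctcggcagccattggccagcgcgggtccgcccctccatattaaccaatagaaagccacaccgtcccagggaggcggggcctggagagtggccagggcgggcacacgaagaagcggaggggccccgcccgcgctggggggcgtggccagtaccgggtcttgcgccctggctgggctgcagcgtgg
Dll4: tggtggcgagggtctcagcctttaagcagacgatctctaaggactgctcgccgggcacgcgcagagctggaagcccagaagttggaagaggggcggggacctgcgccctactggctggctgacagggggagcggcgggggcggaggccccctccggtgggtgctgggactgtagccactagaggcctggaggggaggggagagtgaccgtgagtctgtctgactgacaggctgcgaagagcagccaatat
In Hes5 the word began 82 bases upstream of the start on the gene's own strand and 226 bases upstream on the opposite strand. Hey2 had it once, 207 bases upstream on the opposite strand. Among the other members it was found only upstream of Rbpj. A second word, the E-box CAGATG or its reverse complement CATCTG, which proteins of the NeuroD family bind, was in 14.4% of the 32851 windows and in 0 of the 8 members. These matches describe letters and not bound sites.

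The ligand genes took different directions. Dll1, a Delta ligand that neural progenitors and newborn neurons carry, had 5.22, 4.78 and 5.50 CPM in RC replicates 1, 2 and 3 and 8.03, 7.11 and 8.16 CPM in RN replicates 1, 2 and 3. Every RN mouse lay above every RC mouse, and the spread within each group was small beside the gap. The group means were 5.17 ± 0.362 and 7.77 ± 0.573 CPM (SD, n = 3 each), a log2 fold change of 0.59 with a 95% interval of 0.20 to 0.97. With an adjusted p of 0.206 in edgeR's quasi-likelihood test, Dll1 did not pass. The values rest on 80 to 96 counts in RC and 133 to 146 in RN.

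Dll4, the Delta ligand of sprouting and arterial endothelium, had 7.01, 10.2 and 6.07 CPM in the RC mice and 3.51, 4.60 and 5.82 CPM in the RN mice. No RN mouse reached the lowest RC mouse, although RN replicate 3 came close to RC replicate 3. The means were 7.75 ± 2.14 and 4.64 ± 1.15 CPM, and the log2 fold change was -0.74 (95% interval -1.35 to -0.12, adjusted p = 0.324 in edgeR). RC replicate 2 carried the highest level, and without it the log2 fold change was -0.49. The other ligand, Jag1, which vessels, astrocytes and neurons all use, had 16.2, 13.5 and 14.3 CPM in the RC mice and 12.7, 14.9 and 14.4 CPM in the RN mice. The groups overlapped, with a log2 fold change of -0.07 and a 95% interval of -0.39 to 0.25.

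Both Delta ligands, Hes5 and Notch1 share exon bases with a gene on the other strand in the annotation GENCODE M21. Gm20421 covers 31.8% of the exon length of Hes5, A930024N18Rik covers 20.5% of that of Dll1, and Gm14207 covers 5.56% of that of Dll4. For Notch1 these are Gm13568 and 0610009E02Rik, with 2.91% and 7.50%. Notch2 shares 5.02% of its exon length with Gm42820 on its own strand, where strand could not separate the reads. None of these partners has a row in the counts, and whether strand was used in counting is not given in the sources used here. Reads of such a gene and of its antisense partner therefore cannot be told apart in these values.

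The receptor genes differed by less than the spread between mice. Notch1, the receptor of neural progenitors and endothelium, had 46.7, 57.9 and 44.0 CPM in the RC mice and 41.6, 53.8 and 55.0 CPM in the RN mice. The groups overlapped almost fully, and the log2 fold change of 0.02 had a 95% interval of -0.31 to 0.35. Notch2, which astrocytes, choroid plexus and vessel walls also carry, had 53.7, 57.4 and 33.9 CPM in RC against 34.8, 37.8 and 40.9 CPM in RN. RC replicate 3 stood below all RN mice while the other 2 RC mice stood above them. The log2 fold change of Notch2 was -0.35 (95% interval -0.78 to 0.08, adjusted p = 0.537 in edgeR), and without RC replicate 3 it was -0.55, with an adjusted p of 0.125, the lowest of a range up to 0.994 over the alternatives tried for it. RC replicate 3 had the fewest choroid plexus transcripts of the RC mice, with markers summing to 655 CPM. The RN mice had 355 to 398 CPM of these markers, as given below with the other lists. RC replicate 3 also had the highest sum of thalamus markers, 2075 CPM. A link of either to Notch2 was not tested.

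Rbpj, which encodes the DNA-binding partner of the cleaved receptor, differed little between the groups. It had 60.7, 54.1 and 52.7 CPM in the RC mice and 55.3, 60.7 and 58.6 CPM in the RN mice. The means of 55.8 ± 4.27 and 58.2 ± 2.70 CPM gave a log2 fold change of 0.06 with a 95% interval of -0.15 to 0.27, the narrowest of the 10 genes.

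Of the 4 target genes, Hes5 was higher in RN, Hey1 and Hey2 were lower and Hes1 was about level, and none passed the test. Hes5, the HES repressor most closely tied to Notch in neural progenitors and astrocytes, had 1.79, 3.59 and 2.81 CPM in RC against 7.26, 3.53 and 5.59 CPM in RN. RN replicates 1 and 3 lay above all RC mice, whereas RN replicate 2 lay just under RC replicate 2. Its log2 fold change of 1.00 was the largest of the 10 genes in either direction, from a mean of 2.73 ± 0.898 to one of 5.46 ± 1.87 CPM. The 95% interval ran from 0.20 to 1.80 and the adjusted p was 0.302 in edgeR's test. With the replicate number as a block, the unadjusted p of Hes5 was 0.0505 in edgeR, against 0.0206 without the block. Its counts, 32 to 60 in RC and 66 to 122 in RN, were the lowest of any member in RC.

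Hes1, the HES repressor that many cell types and other pathways also use, had 5.33, 7.65 and 4.24 CPM in RC against 5.95, 6.20 and 4.19 CPM in RN. The log2 fold change of -0.07 had a wide 95% interval, from -0.69 to 0.55.

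Hey1, a HEY repressor of endothelium, astrocytes and neurons, gave the smallest p of the 10 genes. Its levels were 54.5, 62.1 and 64.2 CPM in the RC mice and 38.2, 45.0 and 46.4 CPM in the RN mice, with no overlap. The mean of 60.3 ± 5.14 CPM in RC was 1.39-fold above that of 43.2 ± 4.35 CPM in RN on the fitted scale (log2 fold change -0.48, 95% interval -0.73 to -0.23). In edgeR's quasi-likelihood test its adjusted p was 0.137. DESeq2's Wald test gave an adjusted p of 0.0202, under the threshold on p, with a fold change under 2. Over the other alternatives, all of them fits in edgeR, the adjusted p of Hey1 ran from 0.0956 with the replicate block to 0.993 with the endothelial score described below as a covariate. At that threshold on p alone, DESeq2 listed 2.92% of its 16250 genes.

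Hey2, the HEY repressor of arterial endothelium, had 7.52, 9.92 and 6.76 CPM in RC against 7.26, 4.65 and 5.20 CPM in RN. RN replicate 1 lay above RC replicate 3, and the other 2 RN mice lay below every RC mouse. The log2 fold change was -0.50, with a 95% interval of -1.04 to 0.04 and an adjusted p of 0.468 in edgeR. Without RC replicate 2, its highest mouse, it was -0.33.

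**Figure D2:**
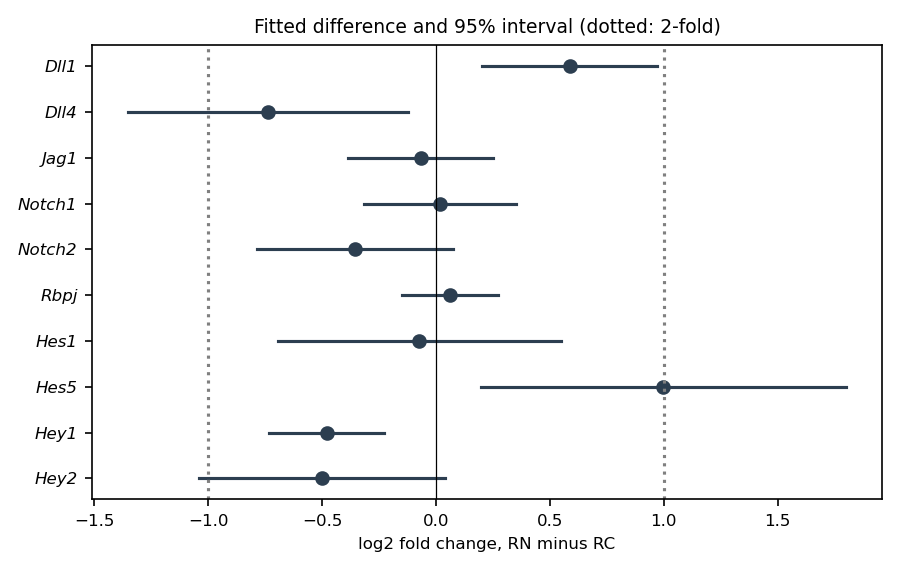
Fitted log2 fold changes (RN over RC, horizontal axis) of the 10 genes, ordered by role, with 95% intervals from edgeR's quasi-likelihood fit to 3 mice per group. The intervals of Dll1 (0.20 to 0.97) and Hes5 (0.20 to 1.80) lie above 0, those of Dll4 (-1.35 to -0.12) and Hey1 (-0.73 to -0.23) lie below it, and the other 6 cover it.

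Levels can be compared between genes only per length, so CPM was divided by the exon length in kilobases. On this scale Hey1 stood highest in both groups, at 18.5 ± 1.57 CPM per kilobase in RC and 13.2 ± 1.33 in RN. In RC it was followed by Notch2 at 4.48 ± 1.18 and Rbpj at 4.38 ± 0.335 CPM per kilobase, which overlapped with each other, and then, apart from Rbpj in every mouse, by Notch1 at 3.48 ± 0.518. Hes1, Jag1, Dll4, Hes5 and Hey2 followed between 2.82 and 1.76 CPM per kilobase, each overlapping with the next. Dll1 was the lowest in RC, at 1.22 ± 0.0858, and did not overlap with Hey2. In RN the order after Hey1 was Rbpj, Hes5, Notch1 and Notch2, from 4.57 down to 3.51 CPM per kilobase, again with each overlapping the next. Hes5, near the bottom of the RC order at 2.00 CPM per kilobase, stood at 4.01 in RN, below Hey1 and Rbpj alone. At the bottom of the RN order were Dll1 at 1.84 and Hey2 at 1.24 CPM per kilobase, followed by Dll4, which overlapped with Hey2. The exon lengths are the union over all isoforms in GENCODE M21, which lowers the value of a gene with many long isoforms.

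The ligand and receptor genes outside the 10 had log2 fold changes from -0.57 to 1.13. Of 7 tested, 0 passed the test, and the median log2 fold change of the 7 was 0.23. At an unadjusted p under 0.05, 2 were higher and 1 was lower, where 5.44% and 6.33% of all tested genes were. Dll3, a divergent Delta protein of progenitors that inhibits Notch within its own cell, had 20, 37 and 30 counts in the RC mice and 58, 74 and 65 in the RN mice. The groups did not overlap, and the log2 fold change was 1.13 (SE 0.302, adjusted p = 0.188 in edgeR). Dner, a Notch ligand of neurons, had 246, 222 and 215 CPM in RC against 292, 278 and 256 CPM in RN, also without overlap, with a log2 fold change of 0.27 and an adjusted p of 0.266 in edgeR. Notch4, the receptor of endothelium, went the other way, with 16.8, 15.2 and 12.9 CPM in RC against 8.09, 9.89 and 12.2 CPM in RN. Its log2 fold change was -0.57 (SE 0.188, adjusted p = 0.262 in edgeR). The mural cell receptor Notch3 had a log2 fold change of -0.25, Jag2 one of 0.10 and Dlk2 one of 0.23, with adjusted p-values of 0.617, 0.765 and 0.750 in edgeR. Dlk1, a non-canonical ligand found in hypothalamic neurons, spread widely in RC, at 137, 80.4 and 35.2 CPM, and lay between 138 and 157 CPM in RN, for a log2 fold change of 0.81 and an adjusted p of 0.484 in edgeR.

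Among the other HES, HEY and Notch target genes, 3 of 6 had enough counts to be tested, and 0 of the 3 passed. Heyl, a HEY repressor of mural cells, astrocytes and neurons, had 232, 227 and 173 counts in the RC mice and 388, 450 and 297 in the RN mice, with means of 12.2 ± 1.97 and 21.2 ± 4.05 CPM. Every RN mouse lay above every RC mouse, where for Hey1 every RN mouse lay below. The log2 fold change of Heyl was 0.80 (95% interval 0.37 to 1.24), with an adjusted p of 0.141 in edgeR and of 0.00846 in DESeq2, where the fold change was under 2. Hes6, which acts against HES proteins in neuronal differentiation, had a log2 fold change of 0.35, and Nrarp, a feedback inhibitor that Notch itself switches on, had one of 0.23. Their adjusted p-values were 0.497 and 0.466 in edgeR. Hes2, Hes3 and Hes7 had at most 10 counts in any mouse and were removed by the filter.

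**Figure D3:**
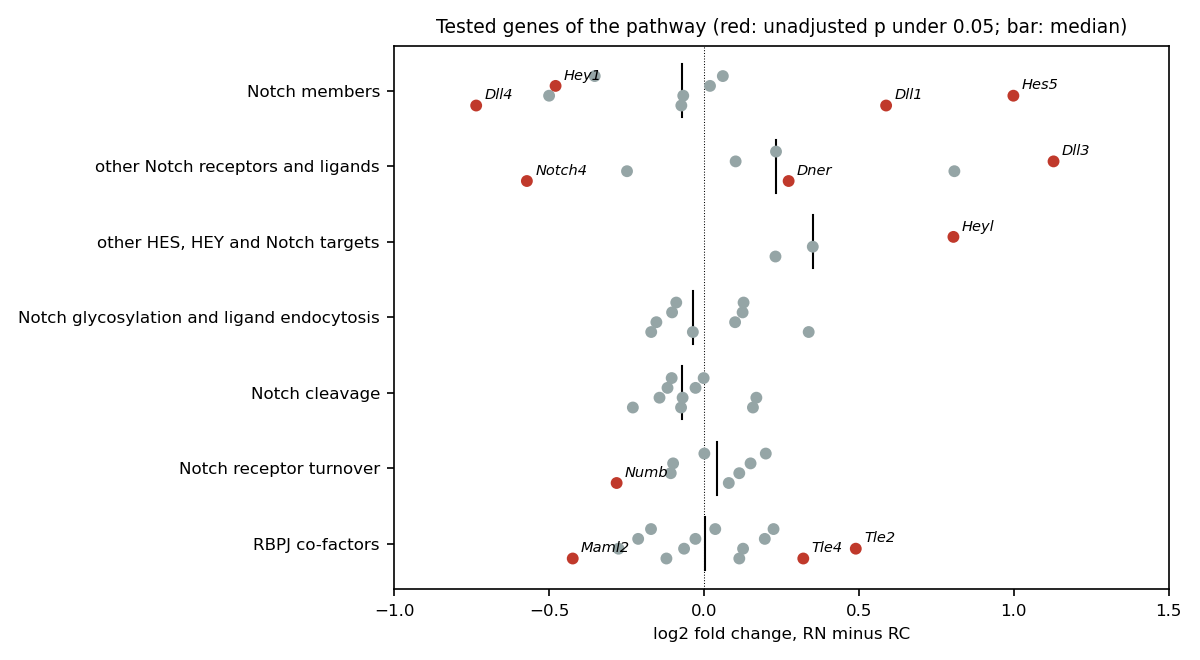
Fitted log2 fold changes (RN over RC, horizontal axis) of the tested Notch pathway genes by role, with a point per gene (red where the unadjusted p was under 0.05) and a bar at each row's median. The 10 genes of the opening form the top row. The 51 other pathway genes run from -0.57 (Notch4) to 1.13 (Dll3) with a median of 0.00, and 47 of them lie within 0.5 of 0.

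The machinery around the receptor showed small differences. For glycosylation of Notch and endocytosis of its ligands, 9 genes were tested and 0 had an unadjusted p under 0.05, and the 3 with the smallest p were Rfng at -0.15, Poglut1 at 0.12 and Neurl1a at 0.34 on the log2 scale. For cleavage, 10 genes were tested, again 0 had an unadjusted p under 0.05, and all lay between -0.23 and 0.17, with the γ-secretase genes Aph1a at -0.14 and Psen2 at 0.17. Of 8 genes of receptor turnover, Numb, which directs Notch to degradation and is passed unequally to daughter cells, was lower. It had 31.0, 29.4 and 31.7 CPM in RC against 25.2, 25.6 and 24.9 CPM in RN, without overlap, at a log2 fold change of -0.28 and an adjusted p of 0.280 in edgeR. Dtx4 and Numbl of the same list stood at 0.20 and 0.15. Among 14 co-factors of RBPJ, the activator Maml2 stood at -0.42 (adjusted p = 0.344 in edgeR), and the Groucho co-repressors Tle2 and Tle4 stood at 0.49 and 0.32, with adjusted p-values of 0.379 and 0.407. Over all 51 other pathway genes that were tested, 0 passed the test, 26 log2 fold changes were positive and 25 were negative. At an unadjusted p under 0.05, 5 were higher and 3 were lower, where 5.44% and 6.33% of all tested genes were. An absolute log2 fold change under 0.5 was found for 6 of the 10 members, 47 of these 51 genes and 13206 of all 14956 tested genes.

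The proneural genes, which HES and HEY proteins repress, included the transgene. Neurod1 rose from 84, 91 and 90 counts in the RC mice to 1123, 1711 and 910 in the RN mice (log2 fold change 3.77, adjusted p = 0.00178 in edgeR), and the counts do not separate viral from mouse transcripts. Of the 9 tested genes of this list 1 passed, Neurod1, and by DESeq2's Wald test with the same thresholds 3 did, with Neurod4 and Nhlh1 added. The list did not move as a whole: 6 log2 fold changes were positive and 3 negative, with a median of 0.68. At an unadjusted p under 0.05 in edgeR, 4 were higher, where 5.44% of all tested genes were, and 0 were lower. The genes named next are those of smallest p. Insm1, a factor of neuronal progenitors, had 57, 35 and 55 counts in the RC mice and 116, 81 and 104 in the RN mice, for a log2 fold change of 1.01 and an adjusted p of 0.189 in edgeR. In the RC mice Neurod4 stood at 4, 0 and 2 counts, against 32, 54 and 52 in the RN mice, and its adjusted p was 0.0630 in edgeR and 4.48e-06 in DESeq2. Nhlh1, a factor of newborn neurons, had 17, 2 and 2 counts in the RC mice and 58, 56 and 44 in the RN mice, at an adjusted p of 0.139 in edgeR and 0.00298 in DESeq2.

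Markers of several cell types differed between the same libraries, and their values belong beside those above. At an unadjusted p under 0.05, 5.44% of all tested genes were higher and 6.33% lower, beside the counts of markers given below. The sample titles name brain tissue, and the thalamus is named in the study's methods. The 10 thalamus markers summed to 1041 to 2075 CPM in RC and 751 to 1471 CPM in RN, which overlapped. All 10 of their log2 fold changes were negative, with a median of -0.56 and 1 of the 10 at an unadjusted p under 0.05. Endothelial markers summed to 921 to 1047 CPM in RC and 640 to 830 CPM in RN, without overlap, and 12 of the 18 tested were lower in RN at an unadjusted p under 0.05 and 0 were higher. Their median log2 fold change was -0.44, and that of the astrocyte list below was -0.45. Among the members, Dll4 stood at -0.74, Hey2 at -0.50, Hey1 at -0.48 and Notch2 at -0.35. Hes1 and Jag1 stood at -0.07, Notch1 at 0.02, Rbpj at 0.06, Dll1 at 0.59 and Hes5 at 1.00. Markers of arterial and tip-cell endothelium summed to 284 to 316 CPM in RC and 157 to 189 CPM in RN, so that the RN mean was 57.7% of the RC mean. Of its 10 tested genes 3 were lower at an unadjusted p under 0.05 and 0 higher, and the median log2 fold change was -0.22. The 3 were the sprouting-tip genes Apln, which fell and passed the test (log2 fold change -1.32, adjusted p = 0.0383 in edgeR), Esm1 at -2.52 and Angpt2 at -2.18. Without these 3, the other 8 genes of the list summed to 98.6 to 123 CPM in RC and to 108 CPM in each RN mouse, which overlapped. Astrocyte markers summed to 7331 to 9231 CPM in RC and 5191 to 6613 CPM in RN, with 11 of 14 lower at an unadjusted p under 0.05 and a median log2 fold change of -0.45. Markers of pericytes and smooth muscle overlapped, at 363 to 410 CPM in RC and 344 to 476 CPM in RN, as did those of neurons, at 4362 to 5344 and 5048 to 5531 CPM.

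Choroid plexus markers summed to 3943, 10838 and 655 CPM in RC replicates 1, 2 and 3 and to 355 to 398 CPM in the RN mice, and 9 of 10 were lower in RN at an unadjusted p under 0.05. Ependymal markers summed to 130 to 145 CPM in RC and 65.7 to 87.4 CPM in RN, with 7 of 8 lower. Hypothalamic markers summed to 24.5 to 208 CPM in RC and 239 to 438 CPM in RN, with 7 of 10 higher and 0 lower. Oligodendrocyte and microglial markers overlapped between the groups. The part of these marker differences in the values of the 10 Notch genes was not tested.

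**Figure D4:**
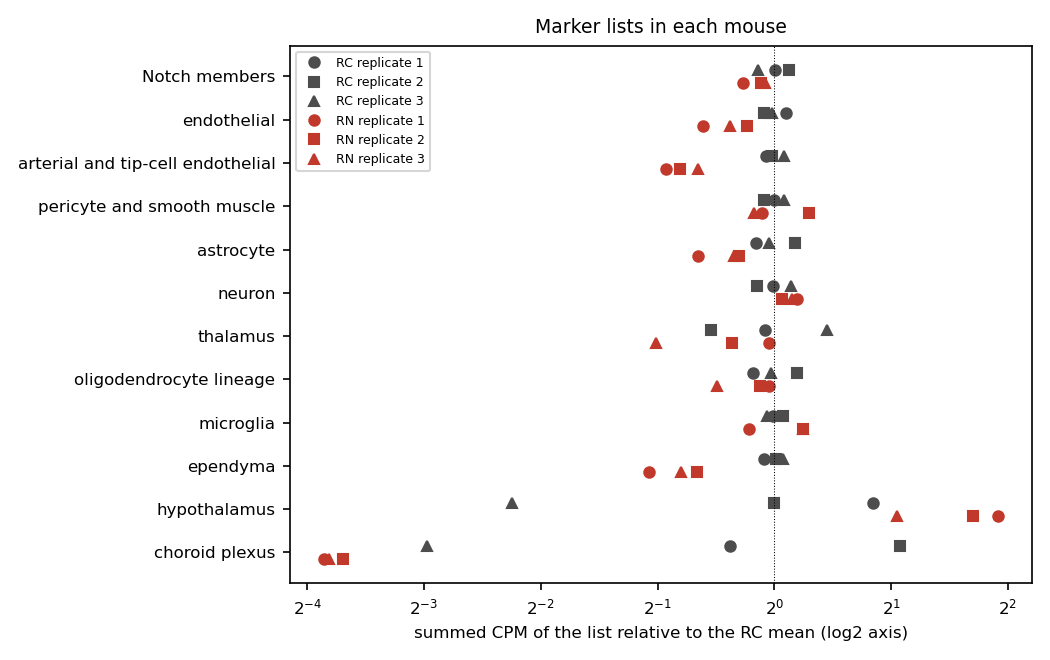
Summed CPM of the 10 Notch genes and of each marker list in each mouse, relative to the mean of the 3 RC mice (horizontal axis, log2 scale), with a symbol per mouse, RC in grey and RN in red. The endothelial, arterial, astrocyte, choroid plexus and ependymal lists lie lower in all RN mice, the hypothalamic list lies higher in all 3, and the others overlap.

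Set against the endothelial list of the same library, 5 of the 10 members were higher in every RN mouse and 5 overlapped. Of all tested genes, 48.4% were higher in every RN mouse on this scale. Hey1 per 1000 CPM of endothelial markers was 52.0, 67.4 and 66.5 CPM in the RC mice and 59.7, 54.3 and 61.6 CPM in the RN mice, so the groups that were apart in CPM overlapped on this scale. Dll4 gave 6.70, 11.0 and 6.29 CPM in RC against 5.48, 5.54 and 7.72 CPM in RN, also with overlap. Hey2, Notch2 and Hes1 overlapped as well, with log2 differences of -0.10, 0.09 and 0.35. Dll1, at 4.98 to 5.69 CPM in RC and 8.57 to 12.5 CPM in RN, stayed apart with a log2 difference of 0.99. Hes5, at 1.71 to 3.89 CPM in RC and 4.25 to 11.3 CPM in RN, was apart on this scale with a log2 difference of 1.40. Notch1, Rbpj and Jag1, which overlapped in CPM, were higher in all RN mice per endothelial CPM, by 0.42, 0.47 and 0.34 on the log2 scale, and a gene that was level in CPM has to be higher when divided by a list that was lower. The share of members higher in every RN mouse, 5 of 10, was near that of all tested genes and does not set the members apart. Divided by the astrocyte list, the same 5 genes overlapped and the same 5 were higher in every RN mouse, as were 49.3% of all tested genes. These ratios are descriptions without a test.

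With the mean of a marker list as a covariate in edgeR's fit, the members' fold changes moved in ways that depended on the list. The log2 fold change of Hey1 was -0.11 with the astrocyte list, -0.38 with the endothelial list and -0.53 with the choroid plexus list. That of Dll4 was 0.28, -0.55 and -0.16 in the same order. Hes5 stood at 0.96, -0.29 and 1.16. Dll1 kept its direction, at 0.33, 0.52 and 0.45. Notch1, at 0.02 without a covariate, stood at 0.69, 0.23 and 0.32, and Hey2, at -0.50 without one, stood at -0.59, -1.22 and -0.13. With each of the 3 lists, 1 of the 10 genes had an unadjusted p under 0.05 and 0 passed the test. That gene was Notch1 with the astrocyte list, Hey1 with the choroid plexus list and Hey2 with the endothelial list. In the same fits, 10.1%, 9.03% and 5.06% of all tested genes had such a p. A score that is itself lower in RN takes up part of the difference between the groups, with 6 mice in all.

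**Figure D5:**
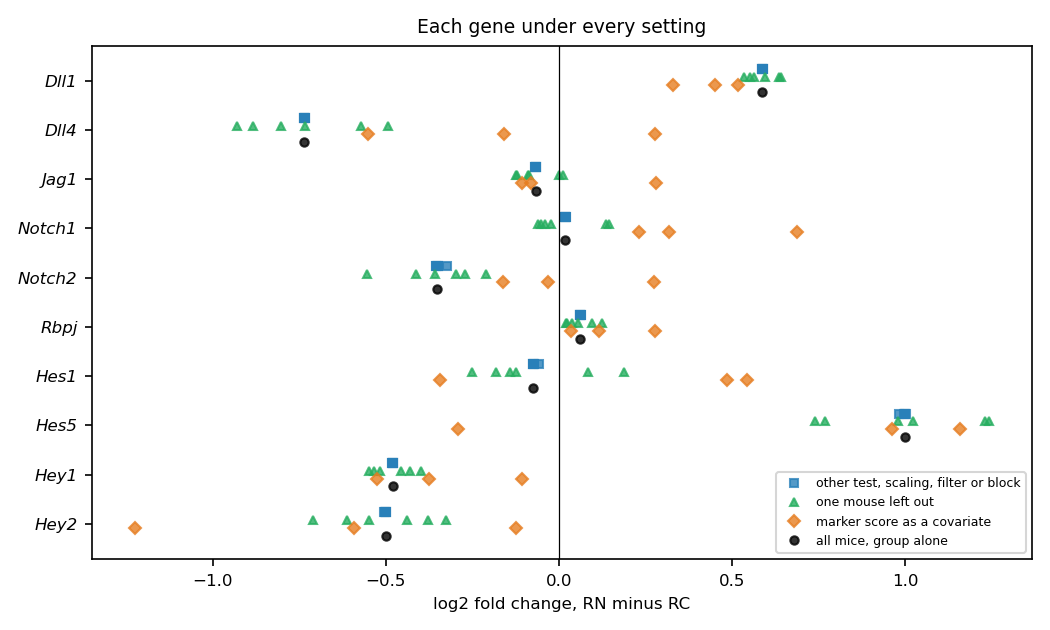
Log2 fold changes (RN over RC, horizontal axis) of the 10 genes under each setting, with a symbol per setting: all mice with the group alone, a mouse left out, a marker score as a covariate, or another test, scaling, filter or block. Dll1 stays above 0 and Hey1 and Hey2 stay below 0 in all of them, whereas Dll4 and Hes5 each cross 0 with 1 marker score.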

How the data were processed

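Thalamus RNA of 3 mice per group was sequenced (NEBNext Ultra RNA libraries, Illumina NovaSeq). The values deposited by the authors are whole-number read counts for each gene, not normalized. The submitters' processing notes name fastp 0.18.0, FastQC, HISAT2 2.2.4, RSEM 1.2.19 and the build GRCm39, without their roles. RSEM estimates need not be whole, so the deposited counts may have been rounded. Library totals lay between 16561663 and 18657015, and a count of 0 allows up to 3 counts, or 0.160 to 0.179 CPM, which covers counting error only. Groups and replicate numbers came from the labels. The labels do not say whether litters or batches were shared. The p-values weigh the difference between groups against the spread between these mice, which is estimated partly from other genes.

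Genes of low count were removed by filterByExpr (minimum count 10) of edgeR 4.0.16 under R 4.3.3. Libraries were scaled by TMM, and the quasi-likelihood model held the group as its only term. CPM are counts scaled to the TMM-adjusted library size. Genes passed at a Benjamini-Hochberg adjusted p under 0.05 over all tested genes and a fold change of at least 2. Intervals are 95% intervals from the quasi-likelihood F statistic. The biological coefficient of variation was 17.4%. With 3 mice against 3, an exact permutation test of a single gene cannot go below a p of 0.1 and was not used. No pair of libraries was alike within sampling noise. Alternatives were DESeq2 1.42.0, its size factors, other filters, no fold threshold, robust estimation, marker scores as covariates, a replicate block and each mouse left out. On simulated counts of this comparison with 200 genes changed 4-fold, edgeR recovered 97.5% of them among 14827 genes with 6.70% of its calls false, and DESeq2 96% among 14956 with 7.69% false. The changed genes were drawn from those above a minimum mean count. All 10 members had fitted differences smaller than 4-fold, so the simulation does not measure recovery at their size.

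Within the groups, the deviations of same-numbered mice were correlated across genes at 0.173, 0.120 and 0.209, each over 0.1, and the numbers were treated as pairs where a block was used. Differently numbered mice ran from -0.285 to 0.156, the highest between RC replicate 1 and RN replicate 2, above the 0.120 of the mice numbered 2. The labels do not say that same-numbered mice are pairs, and these values do not establish it. The members and all gene lists were chosen with earlier results of these data known. The text names every member, every other receptor, ligand and HES, HEY or target gene, up to 3 genes of smallest p in each other list, and Neurod1. Of the genes this rule names, 2 are not reported here. Exon lengths, overlaps and upstream sequences came from GENCODE M21 and RefSeq on GRCm38, not the build of the files, and are given for the reference only.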

Additional observations from a re-analysis of the deposited data

How the results depend on the processing

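Of 150 alternative values of the 10 genes' log2 fold changes, 137 kept their direction and 13 turned it, and 0 members passed the test under any alternative, DESeq2 with its fold threshold included. Notch1 was at 0.02 with all mice and ran from -0.059 to 0.15 with a mouse left out, and to 0.69 with the astrocyte score as a covariate. Hes1 ran from -0.25 to 0.19 and Jag1 from -0.12 to 0.010 in the same way. A covariate of choroid plexus markers turned Notch2 to 0.28 and Hes1 to 0.54. The endothelial score turned Hes5 to -0.29 and Jag1 to 0.28, and the astrocyte score turned Hes1 to 0.49 and Dll4 to 0.28. The cause was not tested.

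The number of members at an unadjusted p under 0.05, 4 with the group alone, was 1 with the choroid plexus score, 1 with the endothelial score and 1 with the astrocyte score, 3 with the replicate block, and 3 to 6 with a mouse left out. Of all tested genes, 11.8% had such a p with the group alone and 13.6% with the replicate block. With the 3 scores in the same order, 9.03%, 5.06% and 10.1% did. The shares with a mouse left out are not given here, so those counts stand without a background. The number of members without overlap, 3 with all mice, ran from 3 to 5, with 5 without RC replicate 3, where 23.8% to 31.0% of all tested genes did not overlap with a mouse left out. Over all tested genes, the 9 higher and 2 lower genes became 99 and 87 in DESeq2, 36 and 7 with no filter on low counts, and 17 and 5 with the replicate block, which changed no member's call. They became 0 and 1 with the choroid plexus score, 0 and 0 with the endothelial score and 0 and 0 with the astrocyte score. With a mouse left out, 3 to 26 genes were higher and 0 to 18 lower, the most without RN replicate 1 and without RC replicate 3, and the fewest without RC replicate 2 or RN replicate 2 (higher) and without RC replicate 1 or RN replicate 2 (lower). At these depths the lowest member, Hes5, rested on 32 to 122 counts per mouse, and its 95% interval spans log2 fold changes of 0.20 to 1.80.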

Other observations

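The ratio of 2 genes within a library does not depend on how libraries are scaled, and 4 such ratios were formed after the values had been seen. Dll1 counts over Dll4 counts were 0.744, 0.471 and 0.906 in the RC mice and 2.29, 1.55 and 1.40 in the RN mice, so that the ligand with more reads was Dll4 in every RC mouse and Dll1 in every RN mouse. The groups did not overlap, and the mean ratio on the log2 scale was 1.32 higher in RN (a 2.50-fold difference). Hes5 counts over Hey1 counts, for 2 targets of the same pathway, were 0.0330, 0.0577 and 0.0437 in RC and 0.190, 0.0784 and 0.121 in RN, also apart, by 1.48 on the log2 scale. The ratios of Hes5 to Hes1 and of Notch1 to Notch2 overlapped between the groups. Since the genes were picked for their opposite directions, these ratios describe the libraries and were not tested.

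The summed level of the 10 genes was 234 to 281 CPM in RC and 215 to 244 CPM in RN, which overlapped. The other receptors and ligands summed to 349 to 477 CPM in RC and 497 to 532 CPM in RN, without overlap, with means of 409 and 514 CPM. Dner and Dlk1 have the largest levels in that sum and carry its difference. The mean of Dner was 228 CPM in RC and 275 CPM in RN, and that of Dlk1 was 84.1 and 147 CPM. Of the 7 genes, 5 log2 fold changes were positive and 2 negative.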
